A study of Homo sapiens with 16 samples.

Results

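Cytosolic ribosomal proteins are the proteins of the ribosome that translates nuclear mRNAs, and the 84 protein-coding genes that encode them were followed through a fibroblast model of tumor development at 2 oxygen levels. The genes were taken by symbol (RPL or RPS with a number, and RPLP0, RPLP1, RPLP2, RPSA and FAU, without the RPS6 kinases, pseudogenes and RPS27L). This rule uses no expression value, but it was chosen with earlier results of these data known. Of the genes, 52 belong to the large and 32 to the small ribosomal subunit. They are 84 of the 19356 protein-coding genes in the data. The model consists of 4 isogenic cell lines grown from human BJ foreskin fibroblasts. They are the primary BJ cell line, BJ hTERT+ cells (immortalized), BJ hTERT+ SV40+ cells (transformed) and BJ hTERT+ SV40+ Ras-G12V cells (metastasizing), so that every later stage also carries what was introduced before it. Each line was grown for 6 passages in Dulbecco's modified Eagle's medium with 10% serum, under atmospheric oxygen or under 3% oxygen, which the study calls moderate hypoxia. RNA came from duplicate plates grown in parallel, giving 8 groups of 2 libraries (a and b) and 16 libraries in all. Each stage is a single cell line, so the p-values below rest on the spread between plates and not between lines of a stage. That spread was estimated in a single fit over all 8 groups.

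Each ribosome holds a single copy of nearly every ribosomal protein, and a growing cell therefore makes their mRNAs in large and closely matched amounts. Most of these mRNAs begin with a cytosine followed by an uninterrupted run of pyrimidines, the 5′ terminal oligopyrimidine (TOP) motif, through which the kinase mTORC1 and the RNA-binding protein LARP1 control their translation and stability. A few members have a variant paralogue with its own gene (RPL22L1, RPL39L, RPL26L1, RPL7L1, RPL3L and RPL10L). Some ribosomal proteins also act outside the ribosome, and RPL5 and RPL11 bind the ubiquitin ligase MDM2.

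The start of the annotated canonical transcript was read from GRCh37 for all 84 genes, from 10 bases upstream to 20 bases into the transcript. Read onward from the annotated first base, a run of at least 5 bases made of C and T that opens with C was found in 60 members (71.4%). The same held for 674 of 12090 protein-coding genes above 1 TPM in mean (5.57%) and 4 of 77 mitochondrial ribosomal protein genes (5.19%). Bases before the start were not read in this count, so some of these runs begin upstream. When the run could begin up to 5 bases to either side of the start, the shares were 82.1%, 22.4% and 19.5%. The windows of 8 genes that recur below are shown 5′ to 3′ on the transcribed strand. Capitals mark the longest such run that begins within 5 bases of the start, and pyrimidines can continue upstream of it. The first 5 have a long run (RPL39 is set beside its paralogue RPL39L), RPL22L1 is a variant paralogue that has one, and RPL39L and RPL7L1 are variant paralogues that have none of at least 5 bases.
RPL13A, chr19:49990855-49990884, plus strand: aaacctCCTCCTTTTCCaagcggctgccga
RPL6, chr12:112847390-112847419, minus strand: gaccttaattCTCTTTCCCatcttgcaagg
RPS21, chr20:60962149-60962178, plus strand: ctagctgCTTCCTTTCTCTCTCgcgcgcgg
RPSA, chr3:39448201-39448230, plus strand: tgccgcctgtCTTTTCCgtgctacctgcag
RPL39, chrX:118925574-118925603, minus strand: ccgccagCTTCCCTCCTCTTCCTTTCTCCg
RPL22L1, chr3:170587965-170587994, minus strand: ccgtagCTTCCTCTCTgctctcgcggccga
RPL39L, chr3:186857265-186857294, minus strand: cggggaaatcgcggtcttagcatccggcgc
RPL7L1, chr6:42847344-42847373, plus strand: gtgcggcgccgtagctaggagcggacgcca

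Expression is given in TPM (each library scaled to the same total), a level per transcript length that the authors estimated for every transcript and that was summed here by gene. Of the 84 members, 81 exceeded 1 TPM in all 16 libraries, 70 exceeded 100 TPM in all of them and 56 had a mean above 1000 TPM. RPS24, a small subunit protein, had the highest mean (4330 TPM), followed by RPL41 (3815 TPM), RPS23 (3754 TPM), RPL4 (3556 TPM) and RPL37A (3288 TPM). The variant paralogues were far lower, with means of 181 TPM for RPL22L1, 106 for RPL26L1, 106 for RPL7L1, 51.4 for RPL39L, 0.987 for RPL3L and 0.0097 for RPL10L. Several core members were also listed at low values. RPS26 (mean 22.7 TPM), RPS27 (24.1), RPS7 (28.7) and RPS10 (34.6) belong to 8 members whose canonical transcript is not among the transcripts of the table, RPS9 (23.3) had its canonical transcript listed at 0 in all libraries, and 30 pseudogenes named after RPS27 summed to 691 TPM in mean. RPS28 had a mean of 8.30 TPM. The values of the members without a listed canonical transcript cover the other transcripts of the gene, and their differences below may not stand for the gene as a whole. In some members a listed canonical transcript also held little of the mean TPM. These included RPS15 (0.64 of 580), RPL13 (10.3 of 1638), RPL4 (16.7 of 3556) and RPL22L1 (18.1 of 181). In others the canonical transcript held most, as in RPL13A (1636 of 1737).

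Depth is not recorded in TPM, so no counting interval can be given. The fibroblast markers VIM (2619 to 6211 TPM) and COL1A1 (107 to 3902 TPM) were expressed in every library, while LUM ranged from 4.00 to 4576 TPM. Of 9 fibroblast markers, 4 were called lower at atmospheric and 7 at 3% oxygen in the step to transformed cells, and for oxygen 1 was called lower in primary cells (median -0.45), 1 higher and 1 lower in immortalized cells (0.30), 1 higher and 2 lower in transformed cells (-0.44) and 4 lower, each beyond 2-fold, in metastasizing cells (-1.38). Their part in the results below was not tested. Epithelial, endothelial and leukocyte markers stayed at or below 3.19 TPM each in every library (14 of 15 measured, PECAM1 had no matched value). Between the 2 libraries of a group, the median absolute difference over 82 members was 0.0479 to 0.140 on the log2 scale in 7 groups and 0.215 in metastasizing cells at 3% oxygen, where all genes also differed most (0.343). With 2 libraries in each group, the smallest two-sided p of an exact permutation test is 0.333, so single genes were tested with limma over all genes, and a call means an adjusted p under 0.01 in either direction at any size.

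The share of all TPM held by the 84 genes was lower at 3% oxygen in the first 2 stages and higher in the later 2. In primary cells it was 11.2% and 10.6% at atmospheric and 8.49% and 8.20% at 3% oxygen. In immortalized cells it was 12.9% and 12.7% against 11.9% and 11.5%. The groups did not overlap in either stage, and the 2 libraries at 3% oxygen were the lower ones. In transformed cells the shares were 13.8% and 13.7% at atmospheric and 16.0% and 16.1% at 3% oxygen, and in metastasizing cells 11.5% and 10.96% against 15.7% and 13.9%, again without overlap but with the 3% libraries higher. The differences of the group means were -2.55, -1.07, 2.26 and 3.60 percentage points in stage order. Both subunits moved together. The large subunit went from 7.13% ± 0.312 to 5.53% ± 0.142 of TPM in primary cells and from 7.21% ± 0.278 to 9.49% ± 0.956 in metastasizing cells, and the small subunit from 3.76% ± 0.120 to 2.81% ± 0.0585 and from 4.04% ± 0.138 to 5.36% ± 0.318 (SD, n = 2). At atmospheric oxygen the share was highest in transformed cells (13.8% ± 0.0775) and close to the primary level again in metastasizing cells (11.3% ± 0.415 against 10.9% ± 0.432, SD, n = 2). A share is relative to the other genes of the same library, so it does not give the amount of these mRNAs per cell.

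**Figure D1:**
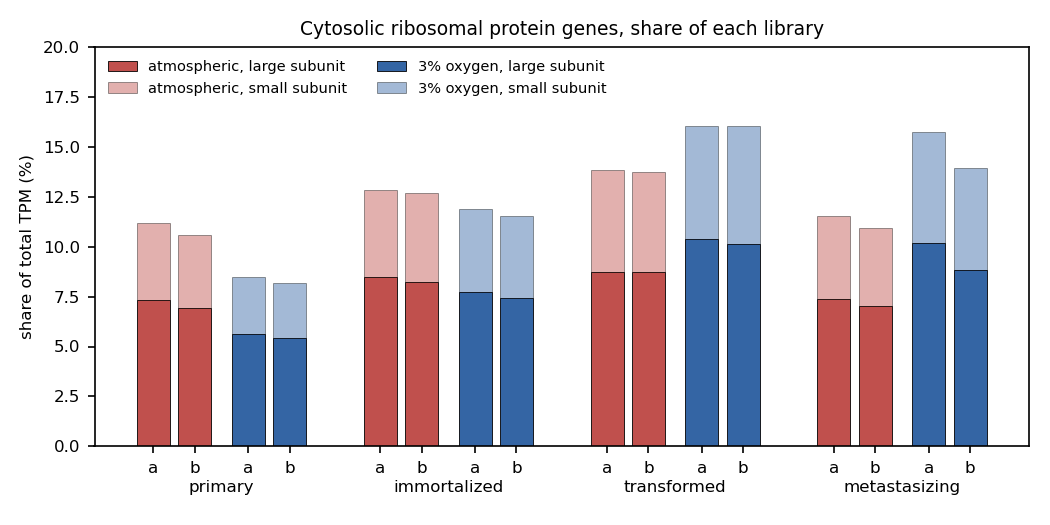
Share of total TPM held by the 84 cytosolic ribosomal protein genes in each of the 16 libraries (a and b are the 2 libraries of a group), split into large subunit (dark) and small subunit (light) genes, in percent. The 3% oxygen bars are the lower ones in primary (8.20% to 8.49%) and immortalized cells and the higher ones in transformed (16.0% to 16.1%) and metastasizing cells (13.9% to 15.7%).

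In primary cells, ribosomal protein mRNAs were lower at 3% oxygen than at atmospheric oxygen. Of 83 members tested, 19 were called lower, against 4.4% of all 12184 genes tested, and none higher. The median log2 fold change over the members was -0.36, with 76 of 83 below 0, while the median over all genes was 0.08. In 72 members both libraries at 3% oxygen lay below both at atmospheric oxygen (26.9% of all genes did), and in 4 above them (40.8%). No member passed the 2-fold threshold of the study as well, which 2.78% of all genes did upward and 2.52% downward. The calls were 11 large subunit and 8 small subunit genes, and the medians over all tested genes of each subunit were close (-0.35 and -0.39). The members varied less among themselves (SD 0.238) than all genes did (0.642). Most members are abundant, whereas all genes include those down to a mean of 1 TPM, and the SDs were not compared at matched levels.

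RPL13A on chromosome 19 (49990767 to 49996314), a large subunit protein that also takes part in the silencing of inflammatory mRNAs, showed the largest fall in primary cells. It measured 1624 and 1674 TPM at atmospheric and 1066 and 874 TPM at 3% oxygen. The 4 libraries did not overlap, and the log2 fold change was -0.77 (SE 0.12, adjusted p = 0.00141). RPL3, which lines the peptidyl transferase center, measured 1642 and 1580 TPM against 1053 and 978 TPM and also fell without overlap (-0.67, SE 0.09, adjusted p = 0.000659). RPL13 (-0.66), RPL12 of the factor-binding region (-0.62), RPS15 of the decoding site (-0.69) and RPL34 (-0.42) fell as well, and so did the paralogue RPL22L1 (-0.68, adjusted p = 0.00159). RPS19, the gene most often mutated in Diamond-Blackfan anemia, had a similar value (-0.66) that did not pass (adjusted p = 0.0212), and RPL39L and RPL7L1 were not lower (0.08 and 0.39, not called). The number of members called depended on single libraries. It was 7 without atmospheric library b or without 3% library a, and 2 without atmospheric library a or without 3% library b, and 0 in a fit of these 4 libraries alone. Of the members named here, RPL3 kept its call without any 1 library. RPL13A lost it without either atmospheric library or 3% library b (log2 fold changes of -0.79 to -0.63), and RPL22L1 lost it whichever of the 4 was left out. RPL13, RPS15 and RPL34 lost theirs without 3 of the 4 libraries in turn, and RPL12 without 2.

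**Figure D2:**
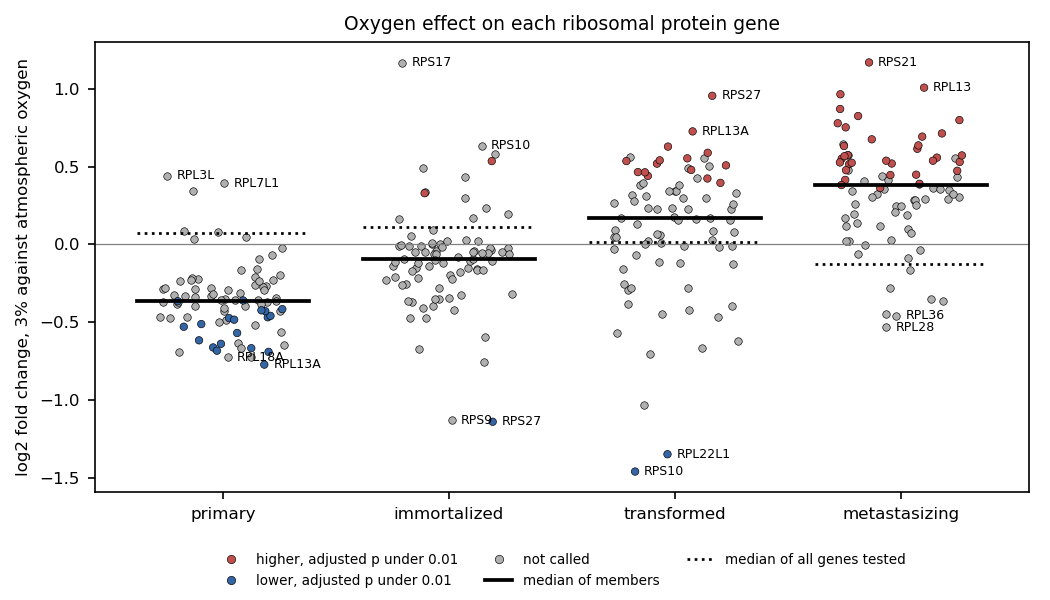
Log2 fold change of each ribosomal protein gene at 3% against atmospheric oxygen in the 4 stages (82 or 83 genes each, 2 libraries a group), with red points called higher, blue points called lower and grey points not called at an adjusted p under 0.01. Solid lines are the medians of the members (-0.36, -0.09, 0.17 and 0.38) and dotted lines the medians of all genes tested (0.08, 0.11, 0.01 and -0.13).

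In immortalized cells the difference was small. RPL39L and RPSA were called higher (8.92% of all 12049 genes were) and RPS27 lower (4.43%), the median of 83 members was -0.09 against 0.11 for all genes, and 62 of the 83 were below 0. Both 3% libraries lay above both atmospheric ones in 14 members (44.9% of all genes) and below them in 43 (27.9%). RPL39L rose from 33.5 and 33.9 TPM to 52.9 and 45.6 TPM (log2 fold change 0.54, SE 0.09, adjusted p = 0.00214). RPSA, which is both a small subunit protein and a laminin receptor, measured 1533 and 1571 TPM against 1983 and 1919 TPM (0.33, SE 0.08, adjusted p = 0.00968). Both genes were higher in both libraries at 3% oxygen. RPS27 alone passed 2-fold, downward (2.78% of all genes did, and 2.13% upward). Of the members called in the primary stage, RPL13A measured 2019 and 2438 TPM against 1666 and 1537 TPM here (-0.47, adjusted p = 0.0174). Its libraries did not overlap, but the call was missed. RPS27 measured 30.6 and 38.8 TPM against 16.1 and 14.7 TPM (-1.14, adjusted p = 0.00379), and with the TPM of its pseudogenes added the difference was -0.14 (adjusted p = 0.972). The calls of RPSA and RPS27 were lost whichever of the 4 libraries was left out (adjusted p up to 0.0775 and 0.0392), and RPL39L kept its call without 3% library b but not without 3% library a or either atmospheric library (adjusted p up to 0.0295).

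In transformed cells the direction was the opposite for most members. Of 82 tested, 15 were called higher (10.9% of all 12242 genes were) and 2 lower (8.63%), and the median was 0.17 against 0.01 for all genes. In 48 members both libraries at 3% oxygen lay above both at atmospheric oxygen (37.3% of all genes did) and in 16 below (35.2%). RPL13A measured 1557 and 1423 TPM at atmospheric and 2364 and 2568 TPM at 3% oxygen (0.73, SE 0.12, adjusted p = 0.00138). RPL34, next to the exit of the large subunit tunnel, rose from 1204 and 1202 TPM to 1834 and 1889 TPM (0.63, SE 0.09, adjusted p = 0.00046). RPS6, the substrate of S6 kinase downstream of mTORC1, rose by 0.55 and RPL13 by 0.52, RPL3 by 0.48, RPL5 by 0.44 and RPL12 by 0.42. These genes were higher in both 3% libraries. RPS6 and RPL13 nevertheless lost their calls whichever of the 4 libraries was left out (log2 fold changes of 0.54 to 0.57 and 0.47 to 0.57). RPL3 (0.38 to 0.57), RPL5 (0.34 to 0.54) and RPL12 (0.33 to 0.51) lost theirs without 3 of the 4 in turn.

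The 2 members called lower in transformed cells went further than any that rose. RPL22L1 on chromosome 3 (170582664 to 170587997) measured 148 and 149 TPM at atmospheric and 61.8 and 54.6 TPM at 3% oxygen. This is a fall of 1.35 on the log2 scale (SE 0.11, adjusted p = 2.59e-05), past the 2-fold threshold, as 2.58% of all genes were (4.9% upward). The gene sum joins transcripts that fell unequally. Its most abundant coding transcript (506 bases) went from 92.1 and 93.8 to 26.3 and 18.2 TPM. A transcript annotated for nonsense-mediated decay (581 bases) went from 40.0 and 38.6 to 26.0 and 27.8 TPM. RPS10 fell from 69.4 and 67.6 TPM to 24.6 and 24.5 TPM (-1.46, SE 0.16, adjusted p = 9.59e-05), as far as its listed transcripts show. RPS27 measured 19.6 and 19.99 TPM against 31.8 and 47.4 TPM (0.96, adjusted p = 0.00714), but with its pseudogenes added it was -0.76 (adjusted p = 0.835). The members called numbered 17 in all and 9, 10, 6 and 4 without 3% library a, 3% library b, atmospheric library a and atmospheric library b, and 4 in a fit of these libraries alone. RPL34, RPL22L1 and RPS10 kept their calls without any 1 library, whereas RPL13A lost its call without 3% library b or atmospheric library b (adjusted p up to 0.0183).

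In metastasizing cells ribosomal protein mRNAs were higher at 3% oxygen. Of 83 tested, 34 were called higher, 23 of the large and 11 of the small subunit, against 5.97% of all 12288 genes, and none lower (8.36%). The median was 0.38 where that of all genes was -0.13, and 72 of 83 members were above 0. In 58 members both 3% libraries lay above both atmospheric libraries (21.7% of all genes did) and in 3 below (37%). RPS21 and RPL13 also passed the 2-fold threshold of the study, as 3.06% of all genes did upward and 4.6% downward.

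RPL6 on chromosome 12 (112842993 to 112856642), a large subunit protein, measured 1226 and 1275 TPM at atmospheric and 2516 and 2369 TPM at 3% oxygen (0.97, SE 0.10, adjusted p = 9.68e-05). RPL13 rose from 920 and 817 TPM to 1633 and 1863 TPM (1.01, SE 0.10, adjusted p = 9.08e-05). The 2 genes had no overlap between the groups and kept their calls without any 1 library. RPS21 on chromosome 20 (60962159 to 60963576) measured 1812 and 1614 TPM at atmospheric and 2847 and 5201 TPM at 3% oxygen (1.17, SE 0.27, adjusted p = 0.00881). Its 3% libraries were both higher but differed from each other by far more than the atmospheric ones, and the call was lost without 3% library b (0.74, adjusted p = 0.0397) or without either atmospheric library (adjusted p up to 0.0576). RPL22L1 rose here, from 90.8 and 113 TPM to 173 and 199 TPM (0.87, SE 0.11, adjusted p = 0.000336). RPL5 (0.83), RPL4 (0.69), RPSA (0.68), RPS6 (0.64), RPS27A (0.63), RPLP0 (0.54), RPL11 (0.55), RPL12 (0.52), RPS24 (0.47), RPL34 (0.45) and RPL39L (0.56) also rose. Of these, RPL5, RPSA and RPS27A kept their calls without any 1 library, and each of the others lost its call without at least 1. RPL13A, called in the 2 stages above, measured 1748 and 1573 TPM against 1743 and 1915 TPM and its groups overlapped (0.14, adjusted p = 0.42). The count of 34 was 23 without 3% library a, 44 without 3% library b, 12 and 13 without atmospheric libraries a and b, 9 with weights that give the 2 variable 3% libraries less influence and 0 in a fit of these 4 libraries alone.

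**Figure D3:**
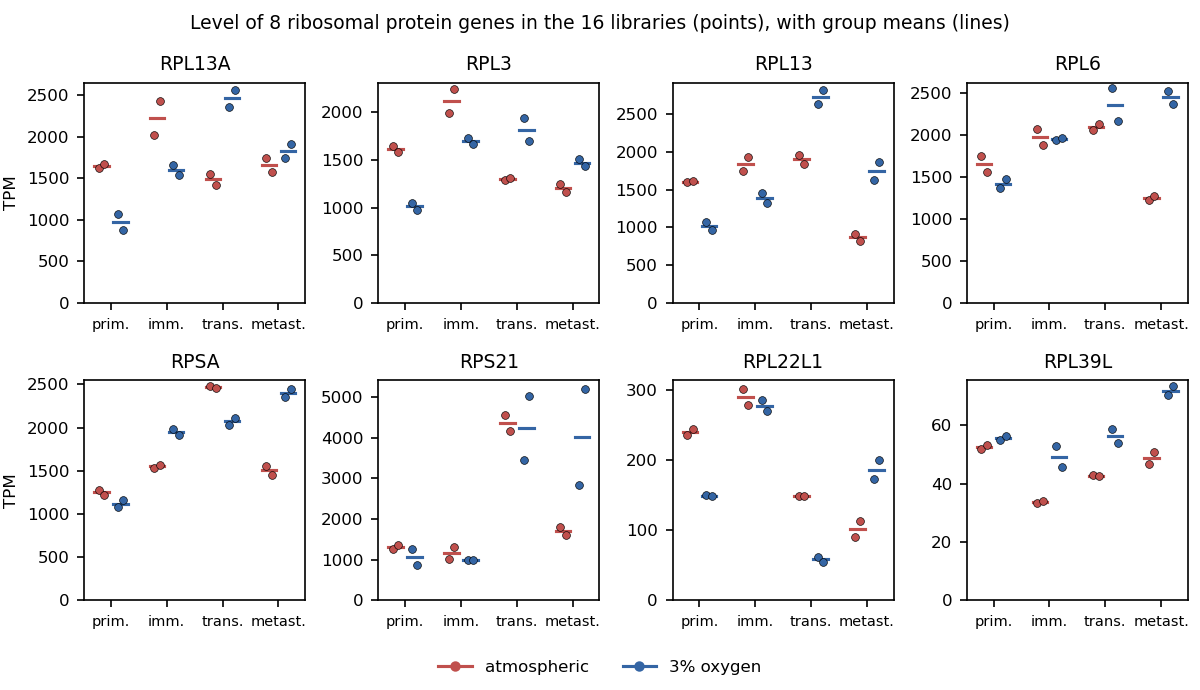
TPM of 8 members in every library (points) with the mean of the 2 libraries of each group (lines), in primary, immortalized, transformed and metastasizing cells at atmospheric (red) and 3% oxygen (blue), each panel from 0. RPL13A, RPL3 and RPL13 are lower at 3% oxygen in the first 2 stages and higher in transformed cells, RPL22L1 goes down from 148 and 149 to 61.8 and 54.6 TPM in transformed cells, and RPS21 is highest in the transformed stage and, at 3% oxygen, in the metastasizing stage.

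Over the 4 stages, whose libraries are separate, 43 of 82 members (52.4%) were lower at 3% oxygen in the first 2 stages and higher in the later 2 by the sign of the fold change, a sequence shown by 539 of 11264 protein-coding genes tested in all stages (4.79%). The members of 1 ribosome are not independent of each other, so these counts carry no test. Of the 82, 46 (56.1%) were called in at least 1 stage, against 40.9% of the 11264 genes. The 5 that passed in 3 stages (6.1%, against 0.107% of the genes), lower in primary and higher in both transformed and metastasizing cells, included RPL12, RPL13, RPL34 and, named after its values were seen, RPL15. The change of the oxygen effect between stages was tested as an interaction. Neighboring changes share the libraries of the stage between them, so they are not separate results. From primary to immortalized cells no member was called by limma (1.14% of 12632 genes were higher and 1.25% lower), with 24 of 83 under an unadjusted p of 0.05 (2 members were called in a fit of only those libraries and 5 with array weights). From immortalized to transformed cells the oxygen effect became higher in 12 members (7.74% of 12715 genes) and lower in 5 (10% of genes). Among the members called higher that had their canonical transcript listed, RPL13A had the largest value (1.20, SE 0.18, adjusted p = 0.000612), and RPL22L1 went the other way (-1.29, SE 0.16, adjusted p = 0.000226). From transformed to metastasizing cells 5 members became higher (4.56% of 12590 genes) and none lower (7.51%), with RPL22L1 at 2.22 (SE 0.16, adjusted p = 1.51e-05) and RPSA at 0.93 (SE 0.11, adjusted p = 0.000276). Without 1 library the change from immortalized to transformed cells had 8 to 14 calls, with 8 without immortalized 3% library b, immortalized atmospheric library a or transformed atmospheric library b, and that from transformed to metastasizing cells 3 to 16, with 16 and 8 without metastasizing 3% libraries b and a.

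The steps of the model were compared at each oxygen level. Neighboring steps share libraries, so each is given by its own values. At atmospheric oxygen, few members were called between immortalized and primary cells, 6 higher (10.1% of all 12388 genes) and 4 lower (12.6%). The median was 0.20 against -0.09 for all genes, and the mean share of TPM was 10.9% in primary and 12.8% in immortalized cells. The libraries did not overlap in 50 members that were higher (31.6% of genes) and 9 that were lower (40.7%). RPS4X, the X-linked form of a small subunit protein, rose from 758 and 666 TPM to 1100 and 1083 TPM (0.62, adjusted p = 0.00187), and RPL26L1 fell from 117 and 116 TPM to 52.8 and 49.5 TPM (-1.18, SE 0.23, adjusted p = 0.00241). RPL26L1 lost its call whichever of the 4 libraries was left out (adjusted p up to 0.0181), and RPS4X kept its own without primary library a but not without the other 3 (adjusted p up to 0.0222). The count of 10 was 5, 2, 1 and 2 without primary libraries a and b and immortalized libraries a and b. At 3% oxygen, 36 of 83 members were called higher (7.64% of 12218 genes) and none lower (9.12%), with a median of 0.45 against -0.06, and the libraries did not overlap in 63 higher (32.3% of genes) and 5 lower members (40%). The interaction above, which tests the difference of this step between the oxygen levels, called none of the 83. RPS24 rose from 2673 and 2927 TPM to 5311 and 5382 TPM (0.93, SE 0.11, adjusted p = 0.00012), RPS4X from 528 and 552 TPM to 1016 and 1011 TPM (0.91, adjusted p = 0.000209) and RPSA from 1080 and 1159 TPM to 1983 and 1919 TPM (0.80, adjusted p = 2.54e-05). All 3 were called without any 1 library, while the count of members was 17 without either primary library and 12 and 13 without the immortalized libraries a and b.

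The step to transformed cells moved individual members the furthest. At atmospheric oxygen 20 members were called higher (25.9% of 12387 genes) and 7 lower (16.5%), and the median of the members, 0.12, was below that of all genes, 0.22. With median-ratio rescaling the member median was -0.11 and with GC content and length regressed out -0.08, and the calls were then 10 higher and 12 lower, and 14 and 13. RPS21 rose from 1019 and 1309 TPM to 4565 and 4168 TPM (1.92, SE 0.27, adjusted p = 0.000125). RPLP2, an acidic protein of the ribosomal stalk, rose from 505 and 665 TPM to 1170 and 1128 TPM (0.99, SE 0.14, adjusted p = 0.000146), and RPL26L1 from 52.8 and 49.5 TPM to 135 and 136 TPM (1.40, SE 0.23, adjusted p = 0.000402). RPL22L1 (-0.96), RPL3 (-0.70), RPL13A (-0.58), RPL34 (-0.44) and RPL12 (-0.42) fell in the same step. RPS10, RPS26 and RPS28 rose by 1.17 to 2.11, in the low values that their listed transcripts give. At 3% oxygen 37 members rose (17% of 12396 genes) and 1 fell (13.2%), with a median of 0.47 against 0.11, and without overlap 68 were higher (43.9% of genes) and 5 lower (32.2%). RPS21 rose from 994 and 982 TPM to 3445 and 5014 TPM (2.07, SE 0.27, adjusted p = 0.000125), and RPL13 from 1462 and 1330 TPM to 2639 and 2816 TPM (0.97, adjusted p = 3.4e-05). RPL22L1, the member that fell, went from 286 and 270 TPM to 61.8 and 54.6 TPM (-2.25, SE 0.11, adjusted p = 1.2e-07). Without 1 library the calls numbered 11 to 16 at atmospheric oxygen (lowest without transformed library b) and 17 to 24 at 3% oxygen (lowest without immortalized library b). RPS21 and RPL22L1 kept both calls each time, RPL26L1, RPLP2 and RPL3 kept theirs at atmospheric oxygen and RPL13 kept its own at 3% oxygen, and RPL13A was lost at atmospheric oxygen without immortalized library b or transformed library b.

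From transformed to metastasizing cells at atmospheric oxygen, 15 of 82 members were called lower (3.47% of 12203 genes) and none higher (5.16%), with a median of -0.29 against 0.06, and in 66 members both metastasizing libraries lay below both transformed ones (29.1% of genes) and in 6 above them (39.4%). RPL13 fell from 1958 and 1847 TPM to 920 and 817 TPM (-1.13, SE 0.10, adjusted p = 6.04e-05), RPS21 from 4565 and 4168 TPM to 1812 and 1614 TPM (-1.35, SE 0.27, adjusted p = 0.00585) and RPSA from 2480 and 2460 TPM to 1556 and 1452 TPM (-0.72, SE 0.08, adjusted p = 0.000161). RPL6 (-0.74), RPS27A (-0.59) and RPLP0 (-0.57) fell too. At 3% oxygen 2 members rose (5.57% of 12288 genes) and 2 fell (7.72%), and the median was -0.10 against -0.07. RPL22L1 rose again, from 61.8 and 54.6 TPM to 173 and 199 TPM (1.67, SE 0.11, adjusted p = 7.46e-06), and RPS10 by 1.03, while RPL13 fell by 0.64 and RPL34 by 0.38. The 15 calls at atmospheric oxygen were 4, 5, 7 and 5 without transformed libraries a and b and metastasizing libraries a and b, and RPS21 lost its call without any 1 of them (adjusted p up to 0.052), whereas RPL13 and RPSA kept theirs. The 4 calls at 3% oxygen were 2 to 10 when a library was left out (10 without metastasizing library a, 7 without library b and 2 without transformed library b), and of them RPL22L1 and RPS10 stayed called each time.

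**Figure D4:**
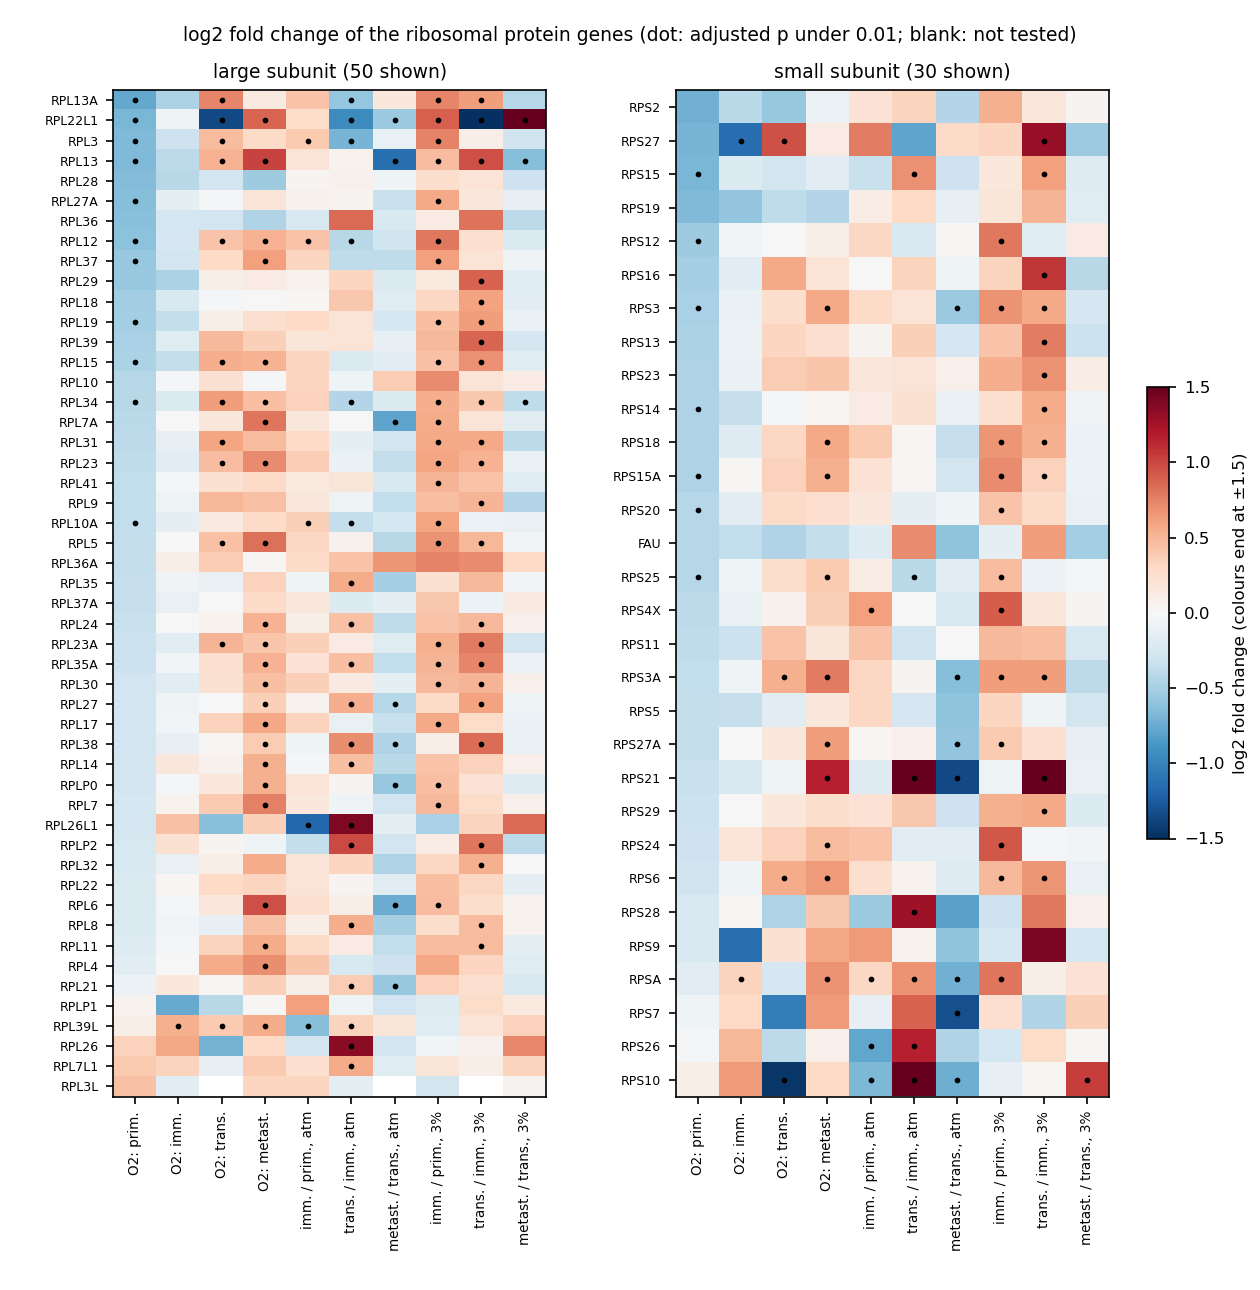
Log2 fold change of the tested members reported here (rows, ordered by the oxygen effect in primary cells) in the 4 oxygen comparisons and the 6 steps between stages (columns), with dots for an adjusted p under 0.01, red higher and blue lower, and colors that end at ±1.5. Most rows share the sign of their column, and RPL22L1, RPL26L1, RPL39L and the low-level RPS10 and RPS26 stand out by going against it in several columns.

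Of the variant paralogues, RPL22L1, the paralogue of RPL22, had its highest value in immortalized cells (302 TPM) and its lowest in transformed cells at 3% oxygen (54.6 TPM). It was called in 8 of the 10 comparisons, which share groups, so these calls are not separate results. RPL39L, the paralogue of RPL39 that is most abundant in testis, was higher at 3% oxygen in both libraries in all 4 stages, from 51.9 and 53.3 to 55.1 and 56.5 TPM in primary cells (0.08, adjusted p = 0.54) and from 46.6 and 50.9 to 70.4 and 73.6 TPM in metastasizing cells (0.56, adjusted p = 0.00153). It was called in the 3 later stages. In transformed cells the difference was 0.40 (adjusted p = 0.00757) and missed the call whichever library was left out (adjusted p up to 0.0511). RPL7L1 was called once, in the atmospheric step to transformed cells (0.56, adjusted p = 0.00321). RPL3L, a paralogue of heart and skeletal muscle, stayed between 0.730 ± 0.0056 and 1.26 ± 0.242 TPM (SD, n = 2), and RPL10L was above 0 in a single group at 0.0779 ± 0.110 TPM.

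Other members with a known role were as follows. RPL5 and RPL11, the MDM2-binding proteins, were called at 3% oxygen in metastasizing cells (0.83, adjusted p = 0.000238, and 0.55, adjusted p = 0.00623), and RPL5 also in transformed cells (0.44, adjusted p = 0.00657). RPL11, whose canonical transcript is not listed, so that its TPM covers other transcripts of the gene, measured 1933 and 2029 TPM against 3355 and 2510 TPM in metastasizing cells, without overlap, and lost its call without 3% library a or without either atmospheric library (adjusted p up to 0.0467). Of the stalk proteins, RPLP0 was called in metastasizing cells (0.54, adjusted p = 0.00114), and RPLP2 had values of -0.24, 0.23, 0.05 and -0.06 in the 4 stages and was not called. RPLP1 had an SE of 0.77, since a short transcript of 256 bases was listed at 2372 TPM in primary 3% library a and at 0 in library b, while its main transcript varied between 488 and 1250 TPM over all libraries. FAU and RPS27A, which are made as fusions with a ubiquitin-like protein and with ubiquitin, were measured in metastasizing cells as follows. RPS27A rose from 1018 and 1049 to 1657 and 1550 TPM (0.63, adjusted p = 0.000527). FAU measured 486 and 391 against 293 and 397 TPM, its groups overlapped and it was not called (-0.35, adjusted p = 0.22).

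Other genes of the translation machinery were read against the shares of all genes called in each stage, which were 8.36%, 8.92%, 10.9% and 5.97% higher and 4.4%, 4.43%, 8.63% and 8.36% lower in stage order. Of 21 translation factors encoded by TOP mRNAs, 1 fell and none rose in primary cells, none was called in immortalized cells, 10 rose and 1 fell in transformed cells and 5 rose in metastasizing cells, with medians of -0.25, -0.11, 0.46 and 0.29. TPT1, a highly translated TOP mRNA, measured 3682 and 2985 TPM against 2120 and 2178 TPM in primary cells (-0.63, adjusted p = 0.0024) and 2109 and 2124 TPM against 6048 and 6709 TPM in transformed cells (1.59, adjusted p = 1.01e-05). EIF4B rose by 1.08 in transformed cells, where EIF3K fell by 0.65. NAP1L1 (0.84) and EEF1B2 (0.65) rose in metastasizing cells.

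Ribosome biogenesis factors make rRNA and assemble the subunits. Of 44, 2 rose in primary cells, 11 in immortalized cells and 2 in metastasizing cells, where 1 fell, and 1 rose and 12 fell in transformed cells, and their medians were 0.32, 0.57, -0.53 and 0.20. NOP56 of the box C/D snoRNPs measured 135 and 128 TPM against 262 and 267 TPM in immortalized cells (1.01, adjusted p = 0.000438), and RRP9 55.3 and 54.3 TPM against 18.1 and 20.7 TPM in transformed cells (-1.48, adjusted p = 0.00106). RIOK2 fell in metastasizing cells by 0.48. EFL1, which releases a late assembly factor, rose in both primary (0.96) and transformed cells (0.78). Of the 77 mitochondrial ribosomal protein genes, 1 fell in primary cells, 7 rose and 1 fell in immortalized cells, 1 rose and 26 fell in transformed cells and 1 rose and 1 fell in metastasizing cells, with medians of 0.01, 0.23, -0.49 and -0.05. MRPL12 measured 156 and 142 TPM against 61.7 and 69.7 TPM in transformed cells (-1.18, adjusted p = 0.000679). In transformed cells, the biogenesis and mitochondrial lists thus had medians below that of all genes (0.01) and the cytosolic ribosomal proteins and TOP factors above it. In the step from immortalized to transformed cells at atmospheric oxygen, 36 of 44 biogenesis factors and 49 of 77 mitochondrial ribosomal proteins rose and 1 of each fell, (25.9% of all genes rose and 16.5% fell), with medians of 0.93 and 0.75, against 0.12 for the cytosolic ribosomal proteins.

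**Figure D5:**
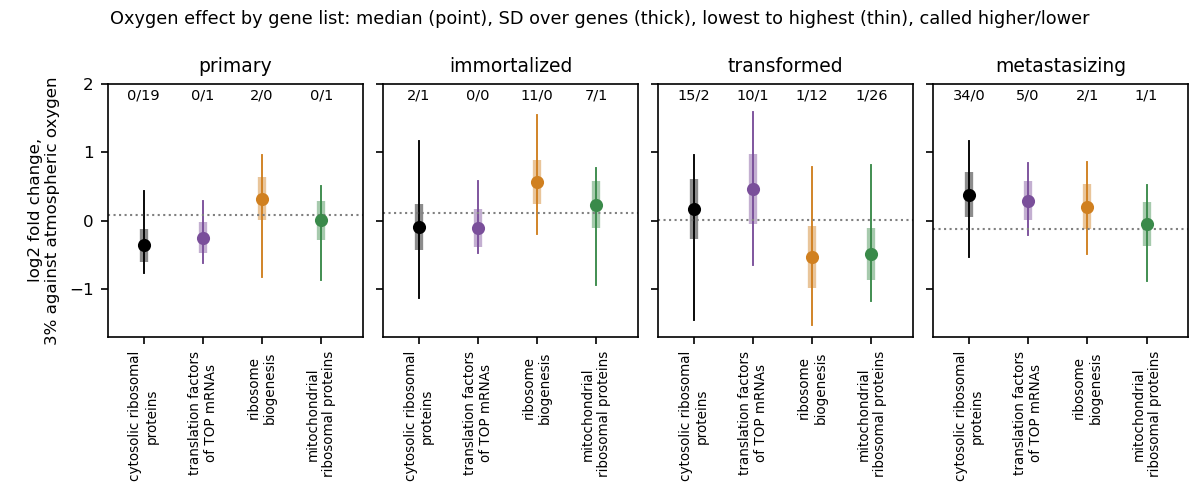
Oxygen effect (log2 fold change, 3% against atmospheric oxygen) in the 4 stages for cytosolic ribosomal proteins, translation factors of TOP mRNAs, ribosome biogenesis factors and mitochondrial ribosomal proteins, with the median (point), 1 SD over genes around it (thick line), the range (thin line) and the number of genes called higher and lower above each. The dotted line is the median of all genes. In transformed cells the first 2 lists lie above it and the other 2 below it (medians 0.17, 0.46, -0.53 and -0.49).

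Among 11 regulators of ribosomal protein mRNAs and of growth, MYC, which promotes the transcription of ribosomal protein and biogenesis genes, rose in immortalized cells from 20.1 and 25.4 TPM to 46.4 and 44.1 TPM (0.99, adjusted p = 0.00153). In transformed cells DDIT4, an inhibitor of mTORC1 induced by stress, rose from 15.7 and 12.4 TPM to 123 and 88.8 TPM (2.86, adjusted p = 0.00102), and RPTOR, a subunit of mTORC1, fell by 0.77 (adjusted p = 0.00543). In metastasizing cells none of the 11 was called by limma, and 4 had an unadjusted p under 0.05. LARP1 and MTOR were not called in any stage (LARP1 0.49, 0.26, -0.16 and 0.10).

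The members are short and vary in base composition, with a median of 673 bases against 2371 for expressed protein-coding genes and GC contents from 39.3% to 62.0%. Across 82 members, the difference between the 2 replicates of a group followed GC content to a varying extent (Spearman's rho from -0.60 in immortalized cells at atmospheric oxygen to 0.71 in metastasizing cells at atmospheric oxygen), and the oxygen effects followed it with -0.30, -0.48, -0.29 and -0.41 in stage order (-0.31, -0.37, -0.26 and -0.16 over all genes). These correlations are across genes of the same libraries. In primary cells the members above and up to the median GC content had medians of -0.43 and -0.33, and in metastasizing cells 0.27 and 0.45, with 10 and 24 of the 34 calls. With GC content and length regressed out of each library, 11 members were called in primary cells in place of 19.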

How the data were processed

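Poly-A RNA of 16 libraries (8 groups of 2) was sequenced, and the authors deposited transcript TPM estimated with kallisto 0.42.1 on GRCh37. The deposited TPM keep no read depth, and the count test of the study could not be repeated. Of 180253 transcripts, 151453 were matched to genes through GENCODE 44 lifted to GRCh37 (between 88.2% and 90.1% of each library's TPM), then summed by gene, giving 34451 genes. A single limma 3.58.1 fit (R 4.3.3) of log2(TPM + 0.5) over all libraries, moderated with an intensity trend and with 8 residual degrees of freedom, gave every difference, so fold changes of low genes are understated. Tested were genes averaging 1 TPM or more in either group compared, p-values were Benjamini-Hochberg adjusted over all of them, and an adjusted p under 0.01 was a call; the study also asked for a 2-fold change. The procedure was also run on simulated data, but the outcome is not given here and lends the calls no support. Named in the text were the 3 largest called rises and 3 largest called falls without overlap in each of the 10 comparisons, the variant paralogues, the stalk proteins, FAU, RPS27A, RPSA, RPL5, RPL11, RPS6, RPL41, RPS19 and RPS27, the 5 highest and 5 lowest members, and the 2 largest rises and falls of each other list. Results of a few of these genes are not reported here. The members and lists were chosen with earlier results of these data known. Other pseudocounts, filters, scalings, weights, a replicate block and left-out libraries were tried as alternatives. Same-lettered libraries are not stated to belong together. Sequences were read from GRCh37, and figures drawn with matplotlib 3.10.9.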

Additional observations from a re-analysis of the deposited data

Results flagged for a closer look

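The oxygen effect (log2 fold change, 3% against atmospheric oxygen) of 11 named members differed between neighboring stages by the interaction test of limma, at an adjusted p under 0.01, in 14 cases in all. From immortalized to transformed cells the effect became higher for RPL13A by 1.20 (SE 0.18, adjusted p = 0.000612), RPL13 by 0.92, RPL34 by 0.84, RPL3 by 0.80 and RPL12 by 0.68, all of the large subunit, and for RPS27 by 2.10 (SE 0.31, adjusted p = 0.000687). It became lower for RPL22L1 (-1.29), RPS10 (-2.09), RPS26 (-0.89) and RPSA (-0.58, SE 0.11, adjusted p = 0.00241). RPS10, RPS26 and RPS27 are members whose canonical transcript is not listed, and RPS27 changed sign in transformed cells once its pseudogenes were added.

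From transformed to metastasizing cells the effect became higher for RPL22L1 by 2.22 (SE 0.16, adjusted p = 1.51e-05), RPS10 by 1.76, RPSA by 0.93 and RPL6 by 0.80 (SE 0.14, adjusted p = 0.00275). RPL22L1, RPS10 and RPSA were thus called at both steps, in opposite directions. The oxygen effect of transformed cells enters both changes with opposite sign, from the same libraries. A deviation in those libraries would move the changes in opposite directions, so they are not separate results.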

How the results depend on the processing

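The number of members called depended on single libraries and on how the spread was estimated, while of 101 calls of named members 1 reversed, RPS27 in transformed cells with pseudogene TPM added (-0.76, adjusted p = 0.835). Of those 101, calls were lost in 56 with a fit of only the libraries compared, 33 with quantile normalization, 27 without a trend, 24 without a filter, 14 with GC content and length regressed out, 13 each with array weights and median-ratio rescaling, 3 with pseudogenes and 2 with a pseudocount of 0.1, and with 1 library left out the call was lost 204 times and held 200 times. With 1 library left out, the calls ranged from 2 to 7 (primary), 0 to 1 (immortalized), 4 to 10 (transformed) and 12 to 44 (metastasizing) for oxygen. For the steps they ranged, at atmospheric oxygen, from 1 to 5, 11 to 16 and 4 to 7, and at 3% oxygen from 12 to 17, 17 to 24 and 2 to 10, and for the changes of the oxygen effect 0, 8 to 14 and 3 to 16. The lone library was then assumed to vary like the other groups. A fit of only the libraries compared called 0 (primary), 1 (immortalized), 4 (transformed) and 0 (metastasizing), 2 in immortalized against primary at atmospheric oxygen, 0 in metastasizing against transformed at 3% oxygen, and 2 and 2 in the changes from primary to immortalized and from transformed to metastasizing. Without a trend there were 10 (primary), 21 (metastasizing), 5 (immortalized against primary, atmospheric) and 9 calls (metastasizing against transformed, atmospheric). With array weights there were 33, 15, 26 and 9 for oxygen in stage order, 25 and 35 in the same 2 atmospheric steps, 1 in metastasizing against transformed at 3% oxygen, and 5, 29 and 3 in the changes. An adjusted p under 0.05 gave 43, 14 and 31 in the first 3 stages, 25, 31 and 14 in those steps, and 4, 31 and 16 in the changes. Regressing out GC content and length, chosen after seeing the data, gave 11 (primary), 23, 24 and 8 in those steps. Median-ratio rescaling gave 7 (immortalized, 1 higher and 6 lower) and 24 (transformed against immortalized, 3% oxygen), quantile normalization 14 (metastasizing) and 10 (transformed minus immortalized), and no filter on low values 5 (immortalized against primary, atmospheric, 1 higher and 4 lower, where 6 and 4 were called).

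The share of TPM in transformed cells rose by 2.46 points of the matched TPM, 2.62 of the protein-coding TPM, 2.43 with pseudogenes added and 2.17 without the 8 members whose canonical transcript is not listed. Both libraries of each group carry a letter, but the same-letter correlations of deviations ran from -0.169 to 0.246 over all genes and from -0.713 to 0.581 over the members, so the letters were not taken as pairs. With a replicate block, 20, 2, 16 and 32 members were called for oxygen, and 12 of the 101 named calls were lost. With crossed letters as a block, chosen after seeing the data, 21, 2 and 25 were called in primary, immortalized and metastasizing cells and 26 in transformed against immortalized at atmospheric oxygen. Depth is unknown, and 2 libraries a group limit the precision.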
